A study of Mus musculus with 16 samples.

Results

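The mature miRNAs of the paired miR-23, miR-27 and miR-24 clusters, which are mmu-miR-23a-3p, mmu-miR-23b-3p, mmu-miR-27a-3p, mmu-miR-27b-3p and mmu-miR-24-3p (written below without the species prefix), were followed in mouse serum across growth and ageing. They were chosen by name, and all 5 of 5 were on the array, out of 1881 mouse miRNAs. Serum was taken from the heart blood of male mice aged 4, 8, 36 and 58 weeks, with 4 mice per age, no treatment and no strain given in the labels. From each serum 1 ng of RNA was labelled with Cy3 and read on an Agilent 1-colour miRNA microarray, so 16 arrays were used. Per the file headers the arrays of 4 and 8 weeks lay on slide 1 and those of 36 and 58 weeks on slide 2. Age and slide thus cannot be told apart except between 8 and 4 weeks and between 58 and 36 weeks.

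Each cluster is transcribed as a single precursor that carries a miR-23, a miR-27 and a miR-24 hairpin, and the paralogous clusters arose by duplication. miR-24-3p is the same molecule from either locus. The clusters are highly expressed in endothelial cells, where miR-23 and miR-27 promote vessel sprouting in mice, and miR-27 is also known for restraining lipid metabolism genes. In serum and plasma work miR-23a-3p serves as a reference against which the red cell miRNA miR-451a is set to judge haemolysis, because its level is taken to be little affected by lysed red cells.

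The mature sequences show which of these miRNAs share a seed, the stretch that pairs with targets, and how far the probes must discriminate between paralogs. They are from RefSeq on GRCm38.p6, 5′ to 3′, with the seed (bases 2 to 8) in capitals.
miR-23a-3p: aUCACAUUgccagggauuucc
miR-27a-3p: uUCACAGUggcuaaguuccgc
miR-27b-3p: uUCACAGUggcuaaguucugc
miR-24-3p: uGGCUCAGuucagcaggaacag
miR-27a-3p and miR-27b-3p share the seed and differ at 1 of 21 bases, C19U, counted from the 5′ end of miR-27a-3p. How well their probes tell them apart was not tested. No sequence of miR-23b-3p was at hand, so it was not compared with miR-23a-3p. How well the probes tell these paralogs apart was not tested either. The miR-23a-3p and miR-27 seeds are distinct, and so is that of miR-24-3p.

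On GRCm38.p6 the hairpins Mir23a, Mir27a and Mir24-2 lie on the plus strand of chr8:84208518-84208921, a span of 404 bases with no spanning gene in the RefSeq gene table. The mature miR-23a-3p is at chr8:84208563-84208583, miR-27a-3p at chr8:84208727-84208747 and miR-24-3p at chr8:84208875-84208896. Mir23b, Mir27b and Mir24-1 lie on the plus strand of chr13:63300484-63301275, a span of 792 bases within the protein-coding gene Aopep. There miR-27b-3p is at chr13:63300760-63300780 and miR-24-3p at chr13:63301251-63301272. Whether these positions are exonic or intronic was not analysed here.

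Each of the 5 miRNAs is read by 2 probes with 15 spots each. The background-subtracted intensities were averaged per miRNA and each array was scaled on the 24 miRNAs detected on all 16 arrays, miR-23a-3p among them. Scaled signals under a floor of 3.79 were set to it before log2 was taken. Brightness also depends on the probe, so the levels of different miRNAs were not ranked against each other.

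A quality mark from the scanner software was on 3 arrays, 4-week replicates 1 and 4 and 36-week replicate 4. Negative-control spots had an SD of 59.3 on 36-week replicate 4 and of at most 19.1 elsewhere. On that array the faintest detected miRNA had a scaled signal of 202, against at most 24.5 on any other array, and of the 5 miRNAs only miR-23a-3p was detected there. The number of mice and the signal over background limit the precision throughout.

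miR-23a-3p, the haemolysis reference, was detected on all 16 arrays. Its scaled signal was 684, 606, 421 and 371 in the 4 mice of 4 weeks, and 404, 438, 564 and 254 in those of 8 weeks. It was 644, 536, 131 and 321 at 36 weeks, and 577, 452, 669.8 and 499.2 at 58 weeks. The ages overlapped, and the lowest value came from 36-week replicate 3, an array without a quality mark. The mean log2 signal was 8.98 ± 0.42, 8.64 ± 0.48, 8.44 ± 1.03 and 9.09 ± 0.25 at 4, 8, 36 and 58 weeks (SD, n = 4 each).

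miR-27a-3p, its cluster mate, was detected on 15 of 16 arrays, the exception being 36-week replicate 4. Its scaled signal was 132.4, 80.7, 56.6 and 48.6 at 4 weeks, and 38.1, 57.2, 75.5 and 35.1 at 8 weeks. It was 96.2, 67.5, 52.2 and 57.8 at 36 weeks, the last without detection, and 71.3, 67.3, 92.4 and 74.6 at 58 weeks. All ages overlapped, although every 58-week mouse lay above 3 of the 4 mice of 8 weeks. The mean log2 signal was 6.20 ± 0.64, 5.61 ± 0.52, 6.06 ± 0.39 and 6.24 ± 0.20 at 4, 8, 36 and 58 weeks (SD, n = 4 each).

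miR-24-3p, the product of either locus and known in mice to restrain endothelial survival after infarction, was detected on 15 of 16 arrays. Its scaled signal was 152, 201, 119 and 79.1 at 4 weeks, and 81.4, 94.1, 94.0 and 116 at 8 weeks. It was 151, 159 and 28.1 in 36-week replicates 1 to 3 and under the floor in replicate 4, and 166, 102, 158 and 124 at 58 weeks. The 36-week mice thus split between replicates 1 and 2, within the range of the other ages, and replicates 3 and 4, below every other mouse. The mean log2 signal was 7.02 ± 0.57, 6.58 ± 0.21, 5.32 ± 2.55 and 7.08 ± 0.32 at 4, 8, 36 and 58 weeks (SD, n = 4 each), with the undetected mouse at the floor.

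The products of the chromosome 13 locus were faint. miR-23b-3p was detected on 12 of 16 arrays, in 3, 4, 2 and 3 mice at 4, 8, 36 and 58 weeks, and its scaled signal was highest in 4-week replicate 1, at 33.2 without detection. At 4 weeks it was at least 16.9, at 8 weeks 11.9 to 18.6, at 36 weeks under the floor to 32.0, and at 58 weeks 9.35 to 20.8. miR-27b-3p, which shares the miR-27a-3p seed, was detected on 10 of 16 arrays, in 3, 3, 2 and 2 mice at the same ages. Its scaled signal was 41.6, 32.2, 16.9 and 10.6 at 4 weeks, and 10.7, 11.2, 10.4 and 9.86 at 8 weeks. It reached 17.6 at 36 weeks, where replicate 4 was under the floor, and 15.4 at 58 weeks. The 8-week mice were close to each other and the 4-week mice were not, with 4-week replicates 1 and 2 above every other mouse for miR-27b-3p.

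The paired probes of each miRNA gave a measure of the technical error. Over the arrays with detection, the log2 signals of the 2 probes correlated at r = 0.998 for miR-23a-3p (16 arrays), 0.996 for miR-24-3p (15 arrays), 0.955 for miR-27a-3p (15 arrays), 0.897 for miR-27b-3p (10 arrays) and 0.722 for miR-23b-3p (12 arrays). The median standard error over the spots of a probe was 0.941% of the signal for miR-23a-3p and 5.22% for miR-27b-3p. The second probe minus the first averaged -2.14 on the log2 scale for miR-23b-3p and -2.60 for miR-27b-3p, so their levels rest mostly on 1 probe. The second probe of miR-27b-3p was at the log2 floor of 1.92 in every mouse of 8 and 58 weeks. That of miR-23b-3p was at the floor in 8-week replicate 3 and 58-week replicate 1, both with detection. For these miRNAs the floor thus limits what the r and the difference of the probes can show. The passenger arms and antisense miRNAs of the loci (miR-23a-5p, miR-23b-5p, miR-27a-5p, miR-27b-5p, miR-24-1-5p, miR-24-2-5p, miR-3074-5p, miR-3074-1-3p and miR-3074-2-3p) were detected on 0 of 16 arrays, all 9 of 9.

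**Figure D1:**
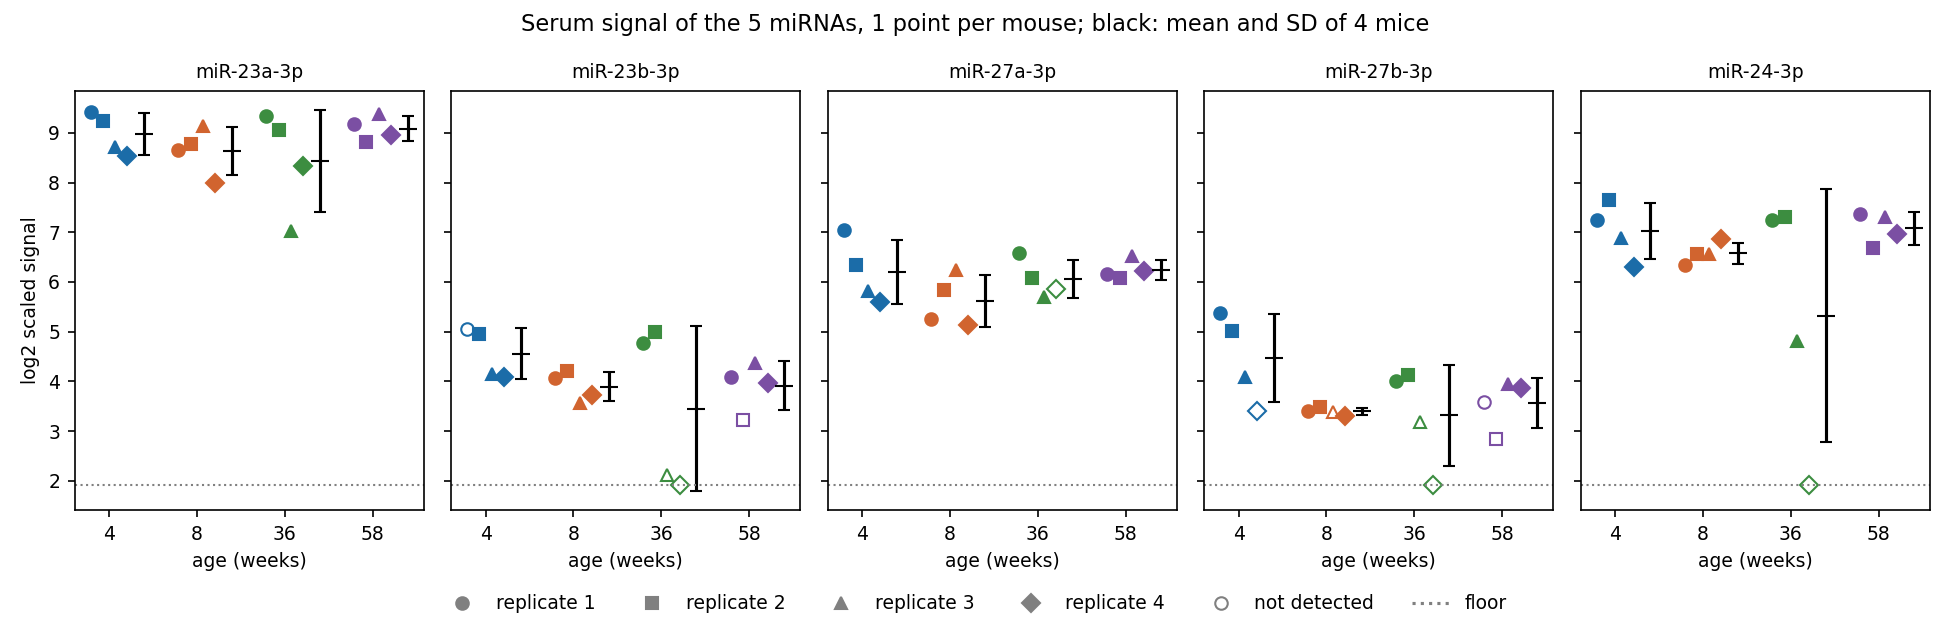
Log2 scaled signal (y axis) of each miRNA by age in weeks (x axis), 1 point per mouse with a shape per replicate number, hollow where the miRNA was not detected, with the mean and SD of 4 mice in black and the floor of 1.92 dotted. The ages overlap for all 5 miRNAs, and the 36-week mice spread widest for miR-24-3p, from the floor to 7.31.

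The first question was whether these miRNAs followed age. None of the 5 passed at an adjusted p of 0.05 for the slope per doubling of age, beside 0.351% of the 285 miRNAs tested (limma with Benjamini-Hochberg adjustment over all 285), and 0 of 5 had an unadjusted p under 0.05. The slopes were -0.009 ± 0.11 for miR-23a-3p, -0.18 ± 0.15 for miR-23b-3p, 0.05 ± 0.10 for miR-27a-3p, -0.20 ± 0.13 for miR-27b-3p and -0.15 ± 0.22 for miR-24-3p (log2 per doubling of age ± SE, 16 mice, adjusted p 0.525 to 0.949). The 95% interval for miR-27a-3p, -0.15 to 0.26, was the narrowest, and that for miR-24-3p ran from -0.60 to 0.31. The median slope was -0.15 over the 5 and 0.12 over all tested. The F test for any difference between the ages also passed 0 of 5, beside 0.351% of all tested, with a lowest unadjusted p of 0.181 and adjusted p of 0.477.

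The slopes were also fitted without the 3 arrays that carry a quality mark, which leaves only replicates 2 and 3 at 4 weeks. There, 54.7% of the 285 miRNAs passed for the slope (limma, 156 miRNAs, 109 of them higher with age), in a comparison in which age and slide cannot be told apart. In that fit 0 of the 5 passed, and 0 had an unadjusted p under 0.05. Their slopes were 0.03 for miR-23a-3p, -0.09 for miR-23b-3p, 0.12 for miR-27a-3p, -0.10 for miR-27b-3p and -0.006 for miR-24-3p, beside a median of 0.15 over all tested.

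Between 8 and 4 weeks, on the same slide, the 5 miRNAs were all lower at 8 weeks by estimate, and so were 80.4% of all tested. None passed, beside 0% of all tested (limma, 0 of 5 and 6 of 285 at an unadjusted p under 0.05). The log2 difference was -1.07 for miR-27b-3p, -0.66 for miR-23b-3p, -0.59 for miR-27a-3p, -0.44 for miR-24-3p and -0.34 for miR-23a-3p, with a median of -0.59 beside -0.72 over all tested. For miR-27b-3p, the one with the lowest p, the 95% interval ran from -2.25 to 0.11, or a fold of 0.21 to 1.08 (adjusted p = 0.536). Without the marked arrays, which leaves only replicates 2 and 3 at 4 weeks, its difference was -1.15 with an unadjusted p of 0.0204 and an adjusted p of 0.318. Under quantile normalization, which puts the median of all tested at 0.20, 4 of the 5 estimates turned positive.

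Between 58 and 36 weeks, on slide 2, the 5 miRNAs were all higher at 58 weeks by estimate, while 66.7% of all tested were lower. None passed, beside 0% of all tested (limma, 0 of 5 and 5 of 285 at an unadjusted p under 0.05). The log2 difference was 1.76 for miR-24-3p (95% interval -0.14 to 3.65, adjusted p = 0.717), 0.65 for miR-23a-3p, 0.46 for miR-23b-3p, 0.25 for miR-27b-3p and 0.19 for miR-27a-3p. These estimates rested partly on 36-week replicate 4, where 3 of the 5 were at the floor. Without it the difference was 0.62 for miR-24-3p, 0.61 for miR-23a-3p, 0.12 for miR-27a-3p, -0.05 for miR-23b-3p and -0.22 for miR-27b-3p, and the median over all tested was 0.06.

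Between 58 and 4 weeks, which lay on different slides, miR-23a-3p, miR-24-3p and miR-27a-3p were 0.11, 0.05 and 0.04 higher on the log2 scale, while miR-23b-3p and miR-27b-3p differed by -0.64 and -0.91. None of the 5 passed, beside 0.351% of all tested (limma, 0 of 5 at an unadjusted p under 0.05, adjusted p 0.864 to 0.998). The 95% interval of the fold was 0.515 to 2.25 for miR-23a-3p and 0.547 to 1.94 for miR-27a-3p. The estimates for 36 against 4 weeks share the 4-week mice with this comparison and ranged from -1.70 for miR-24-3p to -0.15 for miR-27a-3p, with 0 of 5 passing beside 0.351% of all tested and a lowest unadjusted p of 0.0543, for miR-27b-3p. They rested partly on 36-week replicate 4, where miR-23b-3p, miR-27b-3p and miR-24-3p were at the floor. Without that array the median difference of the 5 went from -1.10 to -0.57, and their lowest unadjusted p was 0.173 (limma).

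Against 8 weeks, the older ages passed 0 of 5 in the fit over all arrays, beside 0% of all tested for both 36 and 58 weeks (limma). At an unadjusted p under 0.05 there were 0 of 5, beside 85 of 285 for 36 weeks and 15 of 285 for 58 weeks. Without 36-week replicate 4 there were again 0 of 5, beside 24 of 285 for 36 weeks and 30 of 285 for 58 weeks. miR-27a-3p was 0.44 higher at 36 weeks (adjusted p = 0.460) and 0.63 higher at 58 weeks (95% interval -0.28 to 1.54, adjusted p = 0.408). With array weights, which give less weight to arrays that deviate, these differences were 0.64 (adjusted p = 0.0384) and 0.65 (adjusted p = 0.0227) and both passed. In that fit 1 of the 5 passed for 36 against 8 weeks, beside 63.2% of all tested, and 1 of 5 for 58 against 8 weeks, beside 67.7% of all tested (limma). Both comparisons lie across the slides.

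**Figure D2:**
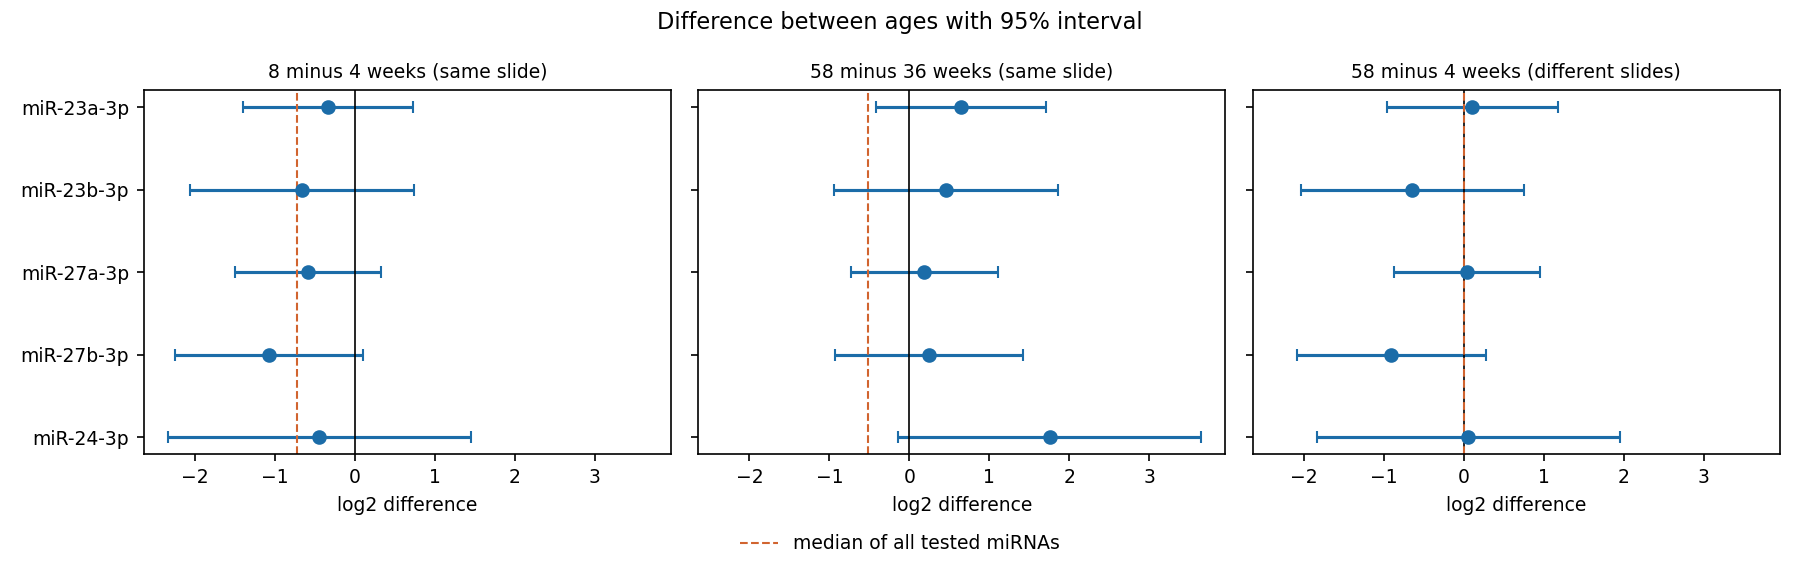
Log2 difference between ages (x axis) for each of the 5 miRNAs (rows), older minus younger, with 95% intervals from the fit over 16 arrays, for 8 minus 4, 58 minus 36 and 58 minus 4 weeks. Every interval holds 0, and the dashed line marks the median over the 285 tested miRNAs, at -0.72, -0.52 and -0.0031.

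With the scaling used here, the 5 miRNAs were positively correlated across the 16 mice, which pool the 4 ages and both slides. Across the 16 arrays, the Pearson correlation of their scaled log2 signals passed for 6 of the 10 pairs and the Spearman correlation for all 10 pairs (2-sided permutation tests with 100000 shuffles, adjusted over the 10 pairs). These counts changed with the processing. With the total signal as deposited 2 pairs passed by r and 6 by rho, with quantile normalization 10 by r and 1 by rho, and with normexp background correction 7 by rho. The median r over the 10 pairs was 0.64, beside 0.01 over all pairs of the 285 tested miRNAs. Without 36-week replicate 4 these medians were 0.68 and 0.09, and without the 3 marked arrays 0.65 and 0.09. Within slides r was positive for all 10 pairs, from 0.48 to 0.93 on slide 1 and from 0.50 to 0.88 on slide 2. The shuffles ran across ages and slides, so the p-values do not separate differences between mice from shifts shared by an age or slide. The difference from other pairs was not tested, and the points share the scaling of their array.

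The miR-23 and miR-27 of the same locus gave the highest rank correlations in these signals. miR-23a-3p and miR-27a-3p, both from chromosome 8, had rho = 0.93 (adjusted permutation p = 5e-05, from the smallest p that 100000 shuffles can give, 1e-05) and r = 0.70 (adjusted permutation p = 0.00508). Within slides their r was 0.91 (slide 1) and 0.84 (slide 2), over 8 arrays each, and it was 0.84 without the 2 arrays farthest from the median of miR-23a-3p. miR-23b-3p and miR-27b-3p, both from chromosome 13, had rho = 0.92 (adjusted permutation p = 5e-05) and r = 0.84 (adjusted permutation p = 0.0004). Within slides their r was 0.93 (slide 1) and 0.88 (slide 2), although both were detected on only 9 arrays, over which r was 0.76. With the total signal as deposited neither pair passed by r (r = 0.59, adjusted permutation p = 0.0704, for the chromosome 8 pair and r = 0.39, adjusted permutation p = 0.144, for the chromosome 13 pair). By rho the chromosome 8 pair had 0.95 with that signal and 0.55 with quantile normalization (adjusted permutation p = 0.0778), and the chromosome 13 pair 0.48 (adjusted permutation p = 0.0731) and 0.84.

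By rho, each of these miRNAs had its cluster mate as the closest of the 284 other tested miRNAs, in both directions, and this held with 36-week replicate 4 left out and with all 3 marked arrays left out. It held with a lower floor, and in other processing it did not hold for both loci. With the total signal as deposited the mates on chromosome 8 ranked 1 and 1 and those on chromosome 13 ranked 37 and 29. In the same order the ranks were 2 and 29 and 7 and 9 with quantile normalization. With normexp background correction they were 11 and 193 and 2 and 2, and without scaling between arrays 7 and 4 and 2 and 1. By Pearson r the cluster mate ranked 6 for miR-23a-3p, 3 for miR-27a-3p, 3 for miR-23b-3p and 1 for miR-27b-3p over all arrays. The paralogs were further apart in rank, with rho = 0.69 (adjusted permutation p = 0.00613) and r = 0.75 for miR-23a-3p with miR-23b-3p, and rho = 0.59 (adjusted permutation p = 0.0213) and r = 0.59 for miR-27a-3p with miR-27b-3p. The pairs of a miR-23 and a miR-27 from different loci had rho = 0.72 (adjusted permutation p = 0.00398) and r = 0.55 for miR-23a-3p with miR-27b-3p. For miR-23b-3p with miR-27a-3p these were rho = 0.51 (adjusted permutation p = 0.0437) and r = 0.44. By rho, miR-23a-3p with miR-27b-3p thus lay above both pairs of paralogs. Differences between these correlations were not tested.

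miR-24-3p, which either locus can supply, had rho = 0.80 with miR-27b-3p, 0.77 with miR-23a-3p, 0.72 with miR-23b-3p and 0.63 with miR-27a-3p (adjusted permutation p 0.00107 to 0.0136). Its r with miR-23a-3p was 0.58 (adjusted permutation p = 0.0718) over all arrays and 0.86 (adjusted permutation p = 0.0029) without 36-week replicate 4, where miR-24-3p was at the floor. The pair of miR-27a-3p and miR-24-3p had the lowest r of the 10, 0.33 (adjusted permutation p = 0.221), and 0.51 without that array.

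Array background was set beside these signals. On slide 2 the log2 SD of the negative-control spots had r between -0.92 for miR-24-3p and -0.35 for miR-23a-3p, and on slide 1 between 0.10 for miR-24-3p and 0.65 for miR-27a-3p (8 arrays each). Over all 16 arrays r ran from -0.69 for miR-24-3p to 0.21 for miR-27a-3p and rho from -0.21 to 0.18, and 0 of 5 passed (permutation tests, lowest adjusted p = 0.122, for the r of miR-24-3p). Slide 2 holds 36-week replicate 4, with an SD of 59.3 against at most 4.45 on its other arrays and with miR-24-3p at the floor. Without the 2 arrays whose background lay farthest from the median, r ran from -0.35 for miR-27b-3p to 0.05 for miR-27a-3p, and was -0.32 for miR-24-3p. The part of the background in the correlations between the miRNAs was not tested.

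**Figure D3:**
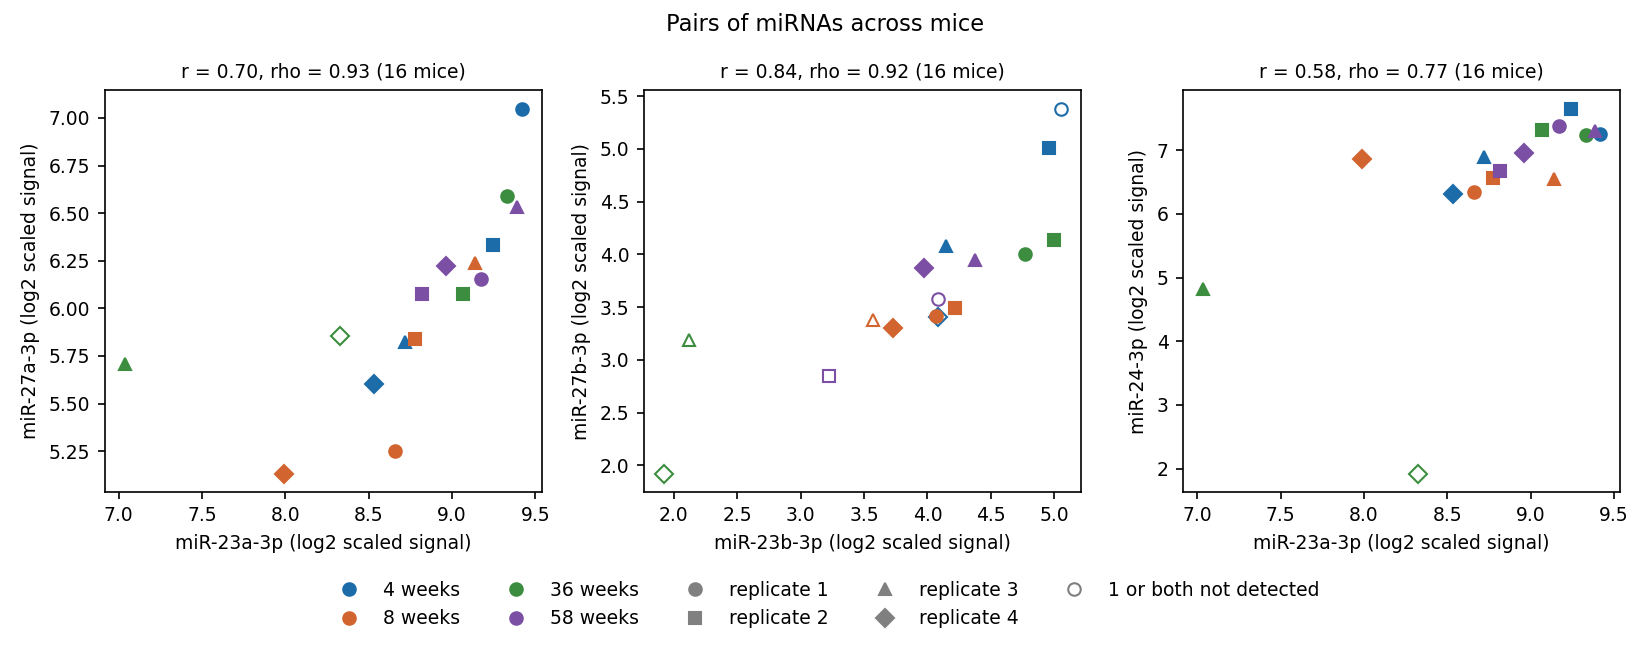
Log2 scaled signal of 1 miRNA (y axis) against another (x axis) for 3 pairs, 1 point per mouse, coloured by age, shaped by replicate number and hollow where 1 or both were not detected. The points for miR-23a-3p and miR-27a-3p rise together except for 36-week replicate 3 at the far left (r = 0.70, rho = 0.93), those for miR-23b-3p and miR-27b-3p rise together (r = 0.84, rho = 0.92), and 36-week replicate 4 stands apart for miR-24-3p (r = 0.58, rho = 0.77).

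Of the 23 other miRNAs detected on all arrays, miR-21a-5p, a miRNA abundant in many tissues and raised in inflammation, was the one most like the mean log2 signal of the 5 (r = 0.57 over 16 arrays, 0.64 without 36-week replicate 4). miR-451a, the red cell miRNA, followed with r = 0.57 and 0.40 without that array. miR-3473b came next with r = 0.48 and 0.25 without that array. Without it miR-223-3p, a myeloid miRNA, had r = 0.56 and miR-3963 r = 0.41, both above miR-451a and miR-3473b. miR-486a-5p, another erythroid miRNA, had the most negative r of the 23, -0.51, and -0.72 without that array. The last 3 were chosen after their values were seen. These are descriptions, since the arrays share their scaling.

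Log2 ratios between miRNAs of the same array do not depend on a scaling factor per array where both lie above the floor, though their level depends on the probes. miR-27a-3p over miR-23a-3p averaged -2.78 ± 0.27, -3.03 ± 0.26, -2.38 ± 0.73 and -2.84 ± 0.13 at 4, 8, 36 and 58 weeks (SD, n = 4 each). miR-24-3p over miR-23a-3p averaged -1.95 ± 0.30, -2.06 ± 0.64, -3.12 ± 2.20 and -2.01 ± 0.15 at 4, 8, 36 and 58 weeks (SD, n = 4 each), and -2.02 ± 0.24 over the 3 mice of 36 weeks with both detected. At 58 weeks both ratios were thus within 0.1 of their 4-week means. Their slopes per doubling of age were 0.06 (adjusted permutation p = 0.812) and -0.14 (adjusted permutation p = 0.821).

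Ratios with miR-23b-3p or miR-27b-3p had too few detected mice for a test and are described. Where both were detected, miR-27a-3p over miR-27b-3p averaged 1.58 ± 0.22 at 4 weeks (n = 3), 2.0 ± 0.30 at 8 weeks (n = 3), 2.26 ± 0.45 at 36 weeks (n = 2) and 2.46 ± 0.17 at 58 weeks (SD, n = 2). The 2 mice of 58 weeks, at 2.35 and 2.58, lay above the 3 of 4 weeks, at 1.33 to 1.74. miR-23a-3p over miR-23b-3p averaged 4.44 ± 0.14 (n = 3), 4.75 ± 0.57 (n = 4), 4.31 ± 0.35 (n = 2) and 5.03 ± 0.05 (n = 3) at 4, 8, 36 and 58 weeks (SD). The 3 mice of 58 weeks, at 4.99 to 5.09, lay above the 3 of 4 weeks, at 4.29 to 4.58, and 1 mouse of 8 weeks reached 5.57. These ages lay on different slides.

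The red cell measure was set over 3 of these miRNAs in turn. With miR-23a-3p, miR-451a averaged 3.35 ± 0.74, 2.89 ± 0.62, 3.26 ± 0.90 and 2.73 ± 0.24 on the log2 scale at 4, 8, 36 and 58 weeks (SD, n = 4 each), and with miR-27a-3p 6.13 ± 0.90, 5.92 ± 0.42, 5.64 ± 0.49 and 5.57 ± 0.28. With miR-24-3p it was 5.31 ± 0.92, 4.95 ± 0.42, 6.38 ± 1.98 and 4.74 ± 0.34, and the 36-week mean was 5.50 ± 1.11 over the 3 mice with both detected. The mean at 36 weeks thus lay below that at 8 weeks with miR-27a-3p and above it with the other denominators, a contrast that was not tested. Without 36-week replicate 3 the 36-week mean over miR-23a-3p was 2.83, below that at 8 weeks. Over miR-24-3p, 36-week replicates 1 and 2 were at 4.76 and 4.96, near the 8-week mean of 4.95. Replicate 4, with miR-24-3p at the floor, was at 9.02. In 36-week replicate 3 the ratio to miR-23a-3p, 4.55, was the highest of all 16 mice, while its ratio to miR-27a-3p, 5.88, lay between those of other mice of that age. Its ratio to miR-24-3p, 6.77, was the highest among the mice with both detected.

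None of these ratios passed by age. The slope was -0.08 with miR-23a-3p (adjusted permutation p = 0.812), -0.14 with miR-27a-3p (adjusted permutation p = 0.570) and 0.06 with miR-24-3p (adjusted permutation p = 0.821), so 0 of the 5 ratios tested passed. In the 15 tests between 2 ages (8 against 4, 58 against 36 and 58 against 4 weeks) 0 passed, with a lowest p of 0.143 and an adjusted p of 0.714 (2-sided exact permutation test, whose smallest possible p is 0.0286). By estimate, the log2 of miR-451a over its denominator was lower by 0.62, 0.56 and 0.57 at 58 than at 4 weeks, for miR-23a-3p, miR-27a-3p and miR-24-3p. The 3 ratios share their numerator, so they are not independent. The mean log2 signal of miR-451a itself was 12.3 at 4 and 11.8 at 58 weeks, and these ages lay on different slides. The summed signal of the erythrocyte markers, of which 3 of 5 on the array were detected and miR-144-5p and miR-363-3p were not, ranged over 4241 to 7493, 2480 to 4712, 2696 to 5566 and 3576 to 6774 at 4, 8, 36 and 58 weeks. In serum, how many cells released a miRNA and how much each released cannot be told apart.

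**Figure D4:**
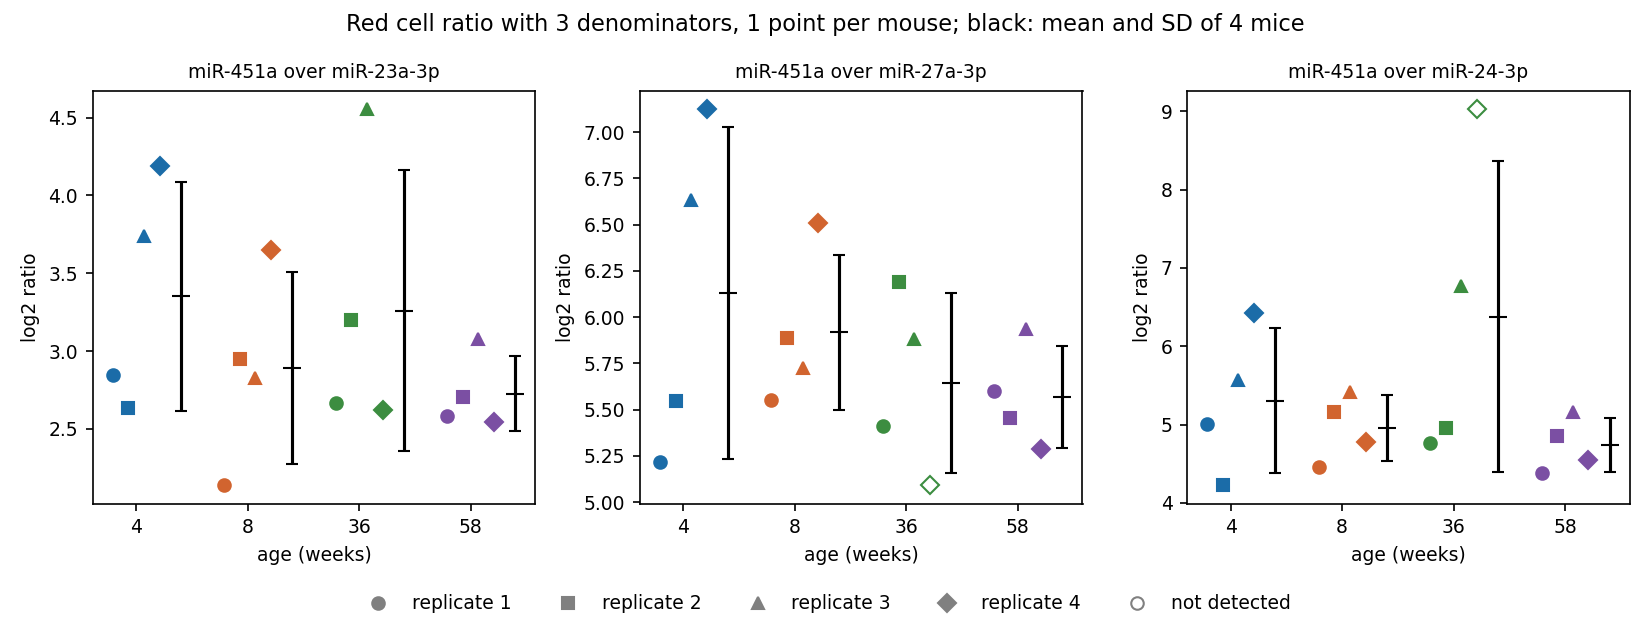
Log2 of miR-451a over each of 3 denominators (y axes, which do not start at 0) by age in weeks (x axis), 1 point per mouse shaped by replicate number and hollow where not both were detected, with the mean and SD of 4 mice in black. The 58-week mice are the least spread with each denominator, and 36-week replicate 3 is highest with miR-23a-3p at 4.55.

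The steadiness of the reference, miR-23a-3p, among the always-detected miRNAs varied with the scaling. The SD of its scaled log2 signal over the 16 arrays was 0.61, which ranked 11 of 24 from the lowest. Without scaling between arrays the SD was 0.63 and the rank 4, and after quantile normalization the SD was 0.98 and the rank 18. The rank was 12 without 36-week replicate 4 or without the 3 marked arrays.

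Other miRNAs with known roles in blood vessels were set beside these clusters. Which cells released the miRNAs into serum was not tested. Of 15 such miRNAs, 12 were detected on at least 1 array and 8 were tested, and 0 of 8 passed in any comparison in the fit over all arrays with the processing described above (limma). The slopes with the lowest p were 0.29 ± 0.11 for miR-222-3p (adjusted p = 0.464), which with miR-221-3p restrains the migration of human endothelial cells, and 0.19 ± 0.09 for miR-92a-3p (adjusted p = 0.525), which restrains angiogenesis in mice. They were followed by 0.23 ± 0.17 for miR-130a-3p and 0.14 ± 0.13 for miR-221-3p (log2 per doubling of age ± SE). Without the 3 marked arrays, where 54.7% of all tested passed, 2 of these 8 passed, miR-221-3p at 0.25 (adjusted p = 0.0314) and miR-222-3p at 0.32 (adjusted p = 0.0329). With normexp background correction, where 5.96% of all tested and 0 of the 5 cluster miRNAs passed for the slope, 3 of these 8 passed (limma), miR-130a-3p at 0.15 (adjusted p = 0.0252), miR-222-3p at 0.20 and miR-221-3p at 0.17 (adjusted p = 0.0485 for both). With array weights 0 to 7 of the 8 passed by comparison, the most for 58 against 8 weeks, where 67.7% of all tested passed.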

How the data were processed

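Spot intensity files of the 16 arrays, as the authors deposited them, come from Agilent Feature Extraction, given as 11.5 in the submitters' processing notes and as 11.5.1.1 by the headers. Background-subtracted intensity, outlier flags and detection calls are as deposited, and the headers record no scaling across arrays. Flagged spots (2.32% to 4.48% per array) were left out and spots averaged per probe, then per miRNA. Arrays were scaled to an equal 75th percentile of the 24 always-detected miRNAs, with a floor of 3.79. Of 572 miRNAs detected on at least 1 array, 285 were tested, those detected on 3 of 4 arrays of at least 1 age. Log2 values were computed from the deposited intensities and fitted with limma 3.58.1 in R 4.3.3 over all 16 arrays (trend with log2 age, F test, 6 pairs of ages), tested on simulated data first. Ratios and correlations used permutation tests (numpy 2.4.6). A ratio was tested if both miRNAs were detected on 3 of 4 arrays of every age.

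The genes named are the 5 members, the other arms of their loci, the 3 miRNAs most like them, and up to 4 of the vessel list by lowest trend p. The members and lists were chosen with earlier results of these data known. Replicate numbers were not used to pair mice: same-numbered arrays had r over 0.1 in 11 of 24 pairs. That 1 array holds 1 mouse is per the labels.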

Additional observations from a re-analysis of the deposited data

Results flagged for a closer look

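Among 40 sets of 4 mice examined (the 5 signals and 5 ratios at each of 4 ages), 3 held a mouse far from the other 3, and chance flags about 1 in 20, or about 2. The log2 ratio of miR-27a-3p over miR-23a-3p was -2.37 in 4-week replicate 1, an array with a quality mark, against -2.93 to -2.90 in the other mice of that age. The same ratio was -3.41 in 8-week replicate 1, an array without a mark, against -2.94 to -2.86 in the others. The log2 ratio of miR-24-3p over miR-23a-3p was -6.40 in 36-week replicate 4, where miR-24-3p was not detected and was set to the floor, against -2.22 to -1.76 in the others. The part of array background in these values was not tested.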

How the results depend on the processing

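Of 327 recomputed counts over 31 settings 321 stayed within 1.5 times. Apart from the counts of correlated pairs, every count was 0 in the main fit, so most of these are a 0 that stayed 0. Of 1146 recomputed single values 1027 kept direction and call, 65 reversed, 40 lost a call and 14 gained one. None of the 5 miRNAs passed by age except with array weights. There, 1 of the 5 (miR-27a-3p) passed for 36 against 8 weeks, beside 63.2% of all tested, and 1 for 58 against 8 weeks, beside 67.7%, and the estimation of the weights did not fully converge. The pairs of miRNAs that passed by r numbered 6 in the fit over all arrays, 10 with quantile-normalized signals, 2 with the total signal as deposited and 5 to 7 leaving out single arrays; by rho they numbered 10, 1 and 6 in the same order and 8 to 10 leaving out single arrays; the cause was not tested.

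Reversed values are log2. Without scaling: slope of miR-27a-3p -0.16; 58 minus 36 weeks miR-27a-3p -0.30 and miR-27b-3p -0.12; 58 minus 4 weeks miR-23a-3p -0.92, miR-27a-3p -0.99 and miR-24-3p -0.98 (median of all tested -0.95). Quantile normalization: 8 minus 4 weeks miR-23b-3p 0.48, miR-27a-3p 0.23, miR-27b-3p 0.44 and miR-24-3p 0.26, 58 minus 36 weeks miR-23b-3p -0.17 and miR-27b-3p -0.12, 58 minus 4 weeks miR-23a-3p -0.15, and ratio slopes 0.12 for miR-24-3p over miR-23a-3p and 0.11 and -0.011 for miR-451a over miR-23a-3p and miR-24-3p. Deposited total signal: miR-27a-3p slope -0.061, 8 minus 4 weeks miR-23b-3p 0.20, 58 minus 36 weeks miR-27b-3p -0.053, and ratio slope -0.041 for miR-27a-3p over miR-23a-3p. Normexp: slopes 0.011, 0.11, 0.091 and 0.046 for miR-23a-3p, miR-23b-3p, miR-27b-3p and miR-24-3p, 58 minus 36 weeks miR-23b-3p -0.000574, 58 minus 4 weeks miR-23b-3p 0.32 and miR-27b-3p 0.24, and ratio slopes 0.035 for miR-24-3p over miR-23a-3p and -0.15 for miR-451a over miR-24-3p. First probe: 58 minus 36 weeks miR-27b-3p -0.10 and 58 minus 4 weeks miR-27a-3p -0.0087. Second probe: 58 minus 36 weeks miR-23b-3p -0.56 and miR-27b-3p -0.032. Array weights: slopes 0.052 for miR-23a-3p and 0.024 for miR-24-3p, 58 minus 36 weeks miR-23b-3p -0.87, miR-27b-3p -0.54 and miR-24-3p -0.012, and 58 minus 4 weeks miR-24-3p -0.063. Slide as a block: slopes 0.073, -0.31 and 0.52 for miR-23a-3p, miR-27a-3p and miR-24-3p, and ratio slopes -0.38, 0.45 and -1.01 for miR-27a-3p and miR-24-3p over miR-23a-3p and miR-451a over miR-24-3p. Without the 3 marked arrays: slope of miR-23a-3p 0.032, 58 minus 36 weeks miR-23b-3p -0.049 and miR-27b-3p -0.22, and 58 minus 4 weeks miR-24-3p -0.19.

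Leaving out single arrays, the miR-23a-3p slope ranged over -0.043 to 0.048, 58 minus 36 weeks over -0.049 to 0.98 for miR-23b-3p and -0.22 to 0.52 for miR-27b-3p, 58 minus 4 weeks over -0.041 to 0.25 for miR-23a-3p, -0.16 to 0.33 for miR-27a-3p and -0.19 to 0.26 for miR-24-3p, and the slope of miR-451a over miR-24-3p over -0.063 to 0.13. The cause of these shifts was not tested. With a replicate block, 0 of 5 passed in each comparison and the slope of miR-23b-3p stayed -0.18; the block rests on a shared number only (same-numbered arrays had r from -0.90 to 0.81, and 2 of 16 arrays correlated best with their own number). Scaling on all miRNAs was not run, since the 75th percentile was negative on 1 array (-0.151), and miR-27b-3p has no value under the stricter filter. The signal over background limits miR-23b-3p, miR-27b-3p and every value of 36-week replicate 4.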

Other observations

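In 36-week replicate 3, an array without a quality mark, the 5 miRNAs were not equally low. The scaled signal was 131 for miR-23a-3p against 321 to 644 in the other mice of that age, and 28.1 for miR-24-3p against 151 and 159 in replicates 1 and 2. It was 52.2 for miR-27a-3p, against 57.8 to 96.2 in the others, where the 57.8 of replicate 4 was without detection. miR-23b-3p was at 4.355 without detection, against 27.3 and 32.0 in replicates 1 and 2. miR-27b-3p was at 9.14 without detection, against 16.1 and 17.6 in replicates 1 and 2. The array had 310 miRNAs detected, more than the 163, 226 and 205 on the other arrays of that age. These values were noticed after the data were seen.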
